A study of Mus musculus with 16 samples.

Results

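Zfp521 and Zfp423 encode a pair of paralogous nuclear proteins that carry many C2H2 zinc fingers, and they were 2 of the 21755 protein-coding genes annotated on the autosomes and the X chromosome of the mouse. Zfp521 was selected on these data, because its gene-body methylation in oocytes of prepubertal females (groups IFC and SO) stood well above that in oocytes of adult females (groups SOA and IV), and Zfp423 was taken as its paralogue. The levels of Zfp521 between those groups are therefore given as a description, and counts of its windows called between them are printed beside the genome-wide share, with nothing read from them. The paper had already named Zfp521 among the genes most hypermethylated in SO against SOA. In GRCm38 coordinates, Zfp521 lies on the minus strand of chromosome 18 from 13687013 to 13972787, a length of 285775 bp, and Zfp423 lies on the minus strand of chromosome 8 from 87661810 to 87959595, a length of 297786 bp. The gene bodies were read in windows of 10 kb, of which 28 have their midpoint in Zfp521 and 30 in Zfp423, among 263174 such windows in the genome.

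CpG methylation was measured by post-bisulphite adapter tagging in pools of mouse oocytes arrested at metaphase of the second meiotic division, all from C57BL/6J X CBA/Ca F1 females. The IFC group (n = 4) came from preantral follicles that were isolated from females of 13 days and cultured for 10 days. Their medium held follicle-stimulating hormone, and chorionic gonadotropin with epidermal growth factor was the ovulatory stimulus. The SO group (n = 5) came from prepubertal females of 23 days superovulated with gonadotropins at 2.5 IU. The SOA group (n = 4) came from adult females of 10 weeks superovulated at 5 IU. The IV group (n = 3) came from females of 10 weeks that ovulated naturally after synchronisation by male odour. No group was left untreated at the prepubertal age, so follicle culture was compared with superovulation. Each library holds oocytes of several females, so the exact permutation, moderated quasi-binomial and limma tests measure the spread between pools. The logistic model of windows has no term for that spread.

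ZFP521 and ZFP423 are known as partners and inhibitors of early B-cell factors (EBF) and as recruiters of the nucleosome remodelling and deacetylase complex (NuRD). ZFP423 also binds SMAD proteins that carry signals of bone morphogenetic proteins (BMP). ZFP423 is known for its part in the commitment of preadipocytes, and ZFP521 for its parts in neural, bone and blood progenitors. In the growing mouse oocyte, methylation is laid down after birth mostly across transcribed gene bodies, while active CpG-rich promoters stay without it, so that the genome is split into highly methylated and nearly unmethylated domains.

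The 16 libraries held between 5218053 and 23065411 methylated or unmethylated calls, and 65.5% to 91.5% of covered positions had a single call. Depth was not spread evenly. All 4 IFC, 2 of 5 SO and 3 of 4 SOA libraries were shallow (5218053 to 8231898 calls), and the other 3 SO, 1 SOA and all 3 IV libraries were deep (12126481 to 23065411 calls). Genome-wide, 37.6% to 43.7% of calls were methylated, with group means of 41.4% (IFC), 40.6% (SO), 40.5% (SOA) and 40.3% (IV). One library stood apart, since 32.1% of informative windows were under 20% methylated in IV1, against 39.7% to 45.0% in the other 15. The paper suspected a slight contamination of IV1 by DNA of somatic cells and kept the sample. That was not tested here. Within 500 bp of the outermost annotated start, 3 of 5 maternally imprinted genes were highly methylated (Peg3 at 93.9%, Snrpn at 98.9%, Kcnq1ot1 at 97.3% of pooled calls), whereas Mest was at 28.7% and Plagl1 at 1.79%. A look at all annotated starts with at least 20 calls was added after these values were seen. The starts ran from 2.17% to 97.5% for Mest and from 1.79% to 97.4% for Plagl1. Of the housekeeping genes, Actb was at 1.901% and Gapdh at 47.5%. The highest start of Actb was at 88.9%, and the starts of Gapdh ran from 2.64% to 100%. High and low starts were thus found in both kinds of gene, so the added look does not settle the check for Mest, Plagl1 or Gapdh.

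The gene body of Zfp521 was methylated at an intermediate to high level in oocytes of prepubertal females and at a low level in oocytes of adults. In IFC, the 4 libraries had 64.1%, 67.5%, 66.5% and 60.8% of their CpG calls in the gene methylated, a mean of 64.7% ± 3.00 (SD). In SO, the 5 libraries had 62.0%, 61.2%, 54.0%, 59.9% and 60.3%, a mean of 59.5% ± 3.19. Counted over all calls, the 9 libraries lay above 50%, and the ranges of IFC and SO overlapped. In SOA, the 4 libraries had 29.97%, 30.7%, 26.6% and 28.3%, a mean of 28.9% ± 1.83. In IV, the 3 libraries had 28.4%, 24.1% and 28.3%, a mean of 27.0% ± 2.45. The 2 adult groups overlapped each other, and no adult library came within 23.3 percentage points of the lowest prepubertal library.

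**Figure D1:**
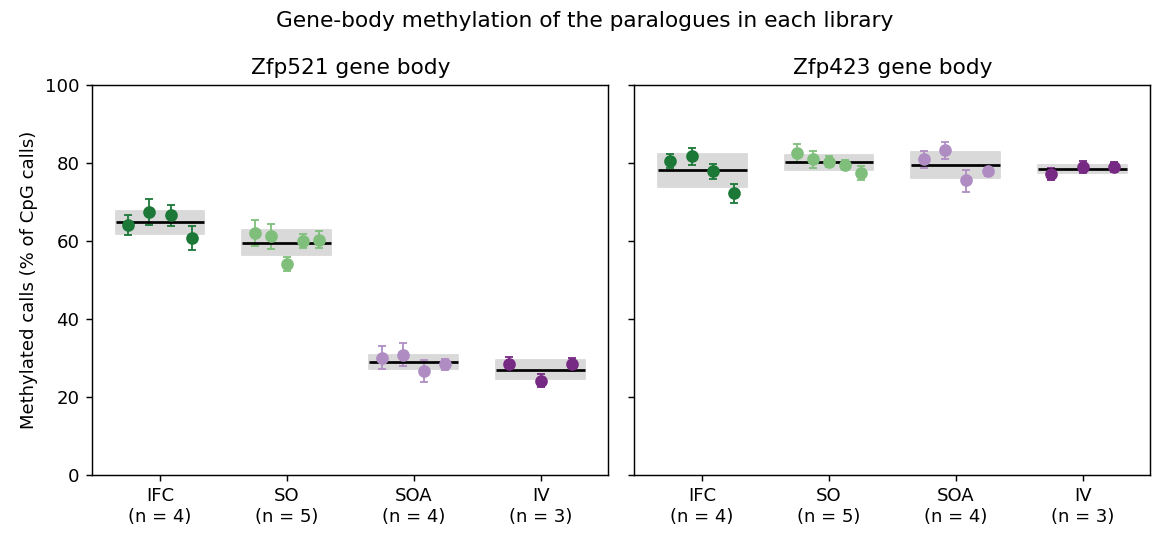
Methylated share of CpG calls (%) in the gene bodies of Zfp521 and Zfp423, by group. Points are libraries with 95% Wilson intervals, black lines are group means and grey bands are ± 1 SD. Zfp521 lies between 54.0% and 67.5% in IFC and SO and between 24.1% and 30.7% in SOA and IV, whereas Zfp423 lies between 72.2% and 83.2% in all groups.

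Over the 9 prepubertal and 7 adult libraries, Zfp521 averaged 61.8% ± 4.01 and 28.1% ± 2.17, a difference of 33.7 points and a ratio of 2.20. In the order of group means, from IFC over SO and SOA to IV, the neighbouring groups IFC and SO differed by 5.24 points and SOA and IV by 1.92 points. The pooled SD within groups was 2.73 points, so the step between SOA and IV lay within the spread. Over all calls, the step between IFC and SO was larger than 1 SD while their libraries overlapped. At positions with at least 3 calls the means were 74.9% in IFC and 52.2% in SO, and their libraries did not overlap. Those values rest on 9 to 80 calls per IFC library and 12 to 634 per SO library, and were not tested. Ranked by the difference between prepubertal and adult libraries, Zfp521 was number 4 from the top of 14355 gene bodies (20 or more positions read in each library), and number 1 of the 2483 that were at least 100 kb long, ranks by the same value for which it was chosen. The median difference over all 14355 gene bodies was 0.45 points.

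The calls behind each Zfp521 value numbered 753 to 3903, which gave 95% Wilson intervals of ± 1.41 to ± 3.34 points for counting error alone. The value in SO3 (54.0%) was the lowest of its group. The 3 deep SO libraries had 54.0% to 60.3% and the 2 shallow ones 61.2% and 62.0%, beside 60.8% to 67.5% in the IFC libraries, all shallow. Depth thus moved with the level among prepubertal libraries, and its part in the difference between IFC and SO was not tested. Within shallow libraries the difference between prepubertal and adult oocytes was 34.6 points (6 against 3), and within deep libraries it was 30.7 points (3 against 4). The shallow libraries include none of IV and the deep ones none of IFC, so these differences compare different groups. Without IV1 it was 33.8 points. Calls on the plus and the minus strand differed by -6.34 to 4.41 points per library, with a median of -0.88.

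The higher methylation of prepubertal oocytes ran along nearly the whole of Zfp521 and ended close to both annotated ends of the gene. The mean of the prepubertal libraries was above that of the adult libraries in all 28 windows of the gene, by 9.93 to 56.0 points with a median of 36.1 points. In 21 of the 28 windows all 9 prepubertal libraries lay above all 7 adult libraries, and in 0 they lay below. Over the 192272 informative windows of the genome, which have at least 5 covered positions in every library, the same held in 0.338% and the opposite in 0.322%. These counts rest on the contrast that selected the gene.

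**Figure D2:**
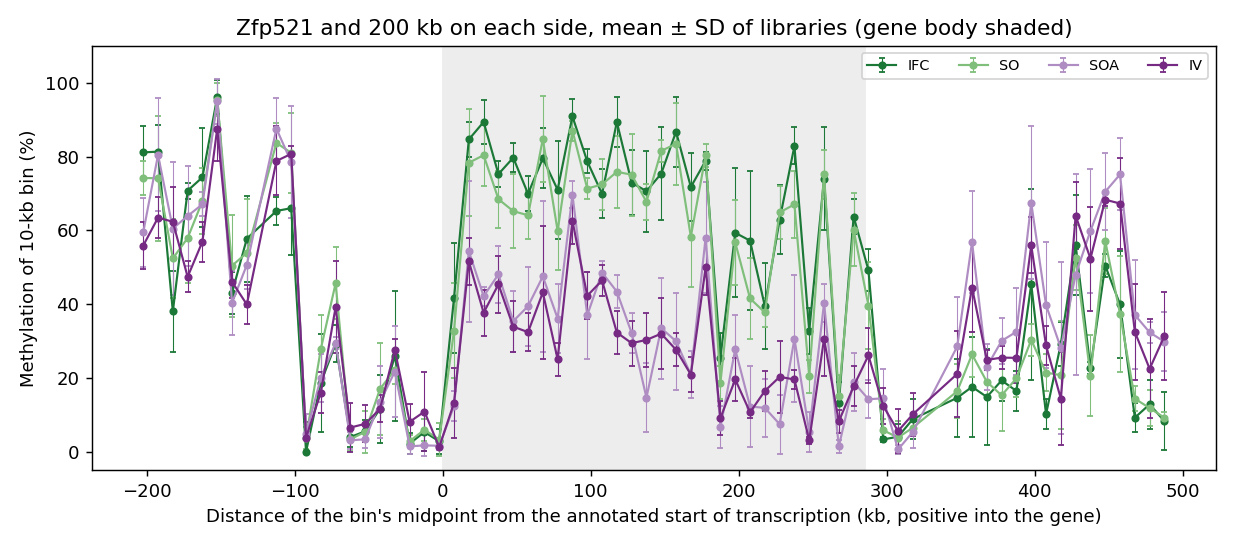
Methylation (%) of 10-kb windows of Zfp521 and 200 kb on each side, against the distance of the window's midpoint from the annotated start (kb). Lines are group means, bars ± SD over libraries, and the gene body is shaded; windows with fewer than 5 covered positions in any library are not drawn. IFC and SO run above SOA and IV from the first window inside the gene, 7.79 kb from the start, to its end, while the groups meet at the start and cross beyond the end.

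The window centred 158 kb inside the gene had the widest gap. It was methylated at 86.8% (IFC), 83.5% (SO), 29.96% (SOA) and 27.7% (IV). The highest level in adults was reached 87.8 kb from the start, where IFC had 90.9%, SO 87.1%, SOA 69.7% and IV 62.6%. In 3 windows the prepubertal groups were also low. At 268 kb, IFC had 13.2% and SO 15.2%, at 248 kb 32.7% and 20.4%, and at 188 kb 25.5% and 18.8%, and adult means in these windows were between 1.48% and 9.16%. The adult groups therefore kept the dips of the prepubertal profile at a lower level: over the 28 windows, which share their libraries and CpG content, Pearson's r was 0.95 between IFC and SO, 0.93 between SOA and IV, 0.81 between SO and SOA and 0.76 between IFC and IV.

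In the logistic model over all windows (adjusted p under 0.05 and at least 20 points), 1.12% of the windows of the genome were called higher and 0.911% lower in SO than in SOA, and 1.75% higher and 2.22% lower in IFC than in SOA. Beside these shares, 24 of the 28 windows of Zfp521 were called higher in SO than in SOA and 26 higher in IFC than in SOA, with 0 called lower in either. These counts restate the contrast by which the gene was chosen, and both use the SOA libraries, so they are no evidence of a difference. By the moderated quasi-binomial test, which uses the spread between libraries, the counts were 21 and 25, beside 0.973% and 2.25% genome-wide. By limma, which also uses that spread, they were 12 and 16, beside 0.236% and 1.09%. SO and SOA differ in age and in hormone dose, which cannot be told apart here.

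Between IFC and SO, which compares follicle culture with superovulation, 0 of 28 windows of Zfp521 were called by the logistic model, the moderated quasi-binomial test or limma. Genome-wide, the logistic model called 0.396% higher and 0.793% lower in IFC, the quasi-binomial test 0.395% and limma 0.0218%, so a count of 0 in 28 lies near the background. The mean was higher in IFC in 20 of the 28 windows, with differences of -6.17 to 15.8 points and a median of 4.84. An unadjusted p under 0.05 was found in 11 of 28 windows, against 16.2% genome-wide, and without a limit on the difference 6 were called higher in IFC, against 1.86%. Both of these counts come from the logistic model, which has no term for the spread between libraries, and neighbouring windows share libraries. Without IFC4, 1 window was called at 20 points. Between SOA and IV, which compares superovulation with natural ovulation in adults, 0 of 28 windows were called by the logistic model, with 0.196% higher and 0.223% lower in SOA genome-wide. The quasi-binomial test and limma called 0% of the 192272 windows in that comparison. An unadjusted p under 0.05 was found in 7 of 28 windows, against 21.2% genome-wide, and differences ran from -15.7 to 11.1 points with a median of 2.28. Without the limit, 1 window was called lower in SOA, against 4.73%.

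By gene structure, the gap was present in every part of Zfp521 that could be measured in each library, other than the start. Exon 4, a coding exon of 3353 bp with 121 CpGs, was methylated at 85.5% ± 7.17 (IFC), 76.8% ± 5.58 (SO), 30.2% ± 11.3 (SOA) and 30.8% ± 10.1 (IV). The last exon, of which 27 of 2012 bp are coding, had 87.0% ± 15.2, 80.2% ± 14.7, 10.5% ± 20.9 and 33.4% ± 21.4, from 290 calls in all and as few as 6 positions in a library. The means of both exons lay above those of the introns beside them in prepubertal oocytes, a difference that was not tested. Intron 3, of 91827 bp, had 77.8% ± 2.84 in IFC and 71.5% ± 3.16 in SO against 43.2% ± 2.36 in SOA and 38.6% ± 3.505 in IV. Intron 5, of 99490 bp and nearer the 3′ end, had 60.1% ± 4.29 and 53.5% ± 4.99 against 20.4% ± 2.98 and 20.1% ± 3.72. Intron 7, of 26116 bp, was the lowest of the long introns in all groups, at 40.9% ± 6.52, 39.0% ± 5.83, 13.7% ± 2.29 and 15.5% ± 2.61.

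The start of Zfp521 had little or no methylation in all 4 groups. Exon 1 held 0 methylated of 172 calls, which allows a share of up to 1.74%. In the 1000 bp before the start, the pooled level was 0% in IFC, SO and IV and 6.56% in SOA, from 61 calls in SOA. A CpG-dense stretch of 4053 bp with 209 CpGs spans this start (chromosome 18, 13970628 to 13974680), and was methylated at 0% (IFC), 0.59% (SO), 0.84% (SOA) and 0.89% (IV). A second, shorter stretch of 1109 bp lies next to it inside the gene (13969451 to 13970559) and had pooled levels of 16.5%, 10.6%, 3.20% and 1.28% from 523 calls. Calls in single libraries were too few to compare there, since not every library covered the stretch and the highest was at 75%. In the 10 kb before the start, group means were 2.26% to 4.58%, and in the 10 kb after the end of the gene they were 14.5% to 16.0%. The difference between prepubertal and adult libraries was 0.30 points in the former and 0.29 points in the latter, against 33.7 points in the gene body.

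Farther beyond the 3′ end of Zfp521 the groups were ordered the other way. Of 19 informative windows within 200 kb, 7 were called lower in SO than in SOA and 1 higher, the latter the window that straddles the 3′ end of the gene. Likewise 7 were called lower and 1 higher in IFC than in SOA. The genome-wide shares were 0.911% lower and 1.12% higher for SO against SOA, and 2.22% lower and 1.75% higher for IFC against SOA. The moderated quasi-binomial test called 6 of the 19 in each comparison, against 0.973% and 2.25% genome-wide in either direction, and limma called 1, against 0.236% and 1.09%. These last counts were not split by direction. They may include the window that straddles the 3′ end, which was higher in prepubertal oocytes. Most of these windows lie over AC103362.1, a long noncoding RNA gene on the same strand that was picked out after its values were seen. Its part within 200 kb of Zfp521 had means of 25.6% ± 1.55 (IFC), 25.6% ± 3.83 (SO), 46.4% ± 8.35 (SOA) and 41.3% ± 7.65 (IV), a difference of -18.6 points. On the 5′ side, 0 of 20 informative windows were called between SO and SOA, with 5 at an unadjusted p under 0.05, against 20.1% genome-wide, and 0 called by either other test, and 1 was called in each direction between IFC and SOA, counts near the same genome-wide shares.

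The nearest protein-coding genes lie far from Zfp521. Hrh4, which encodes a histamine receptor, lies 664 kb beyond the 3′ end and had means of 9.18% ± 1.95 (IFC), 5.58% ± 3.95 (SO), 4.90% ± 2.36 (SOA) and 11.8% ± 6.59 (IV). Ss18, which encodes a subunit of chromatin remodelling complexes, lies 651 kb before the start and had 83.9% ± 2.95, 81.7% ± 4.66, 81.9% ± 13.2 and 79.6% ± 4.46. In neither did the group means follow the order seen in Zfp521. An annotated transcript of unknown function, AC104328.1, lies inside an intron of Zfp521 on the same strand and shares its calls.

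The gene body of Zfp423 was highly methylated in every group. In IFC, the 4 libraries had 80.4%, 81.7%, 77.8% and 72.2%, a mean of 78.1% ± 4.22. In SO, the 5 libraries had 82.6%, 80.9%, 80.3%, 79.5% and 77.5%, a mean of 80.2% ± 1.88. The SOA libraries had 81.0%, 83.2%, 75.6% and 78.0%, a mean of 79.5% ± 3.37 (SD, n = 4), and the IV libraries had 77.1%, 78.9% and 78.9%, a mean of 78.3% ± 1.02. All 4 groups overlapped. The lowest library, IFC4, was also the lowest of the 16 in its genome-wide share of methylated calls, at 37.6%. The calls behind each value numbered 904 to 4193, with Wilson intervals of ± 1.25 to ± 2.80 points.

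The promoter sequences of Zfp423 are shown because the gene has an unmethylated start at the edge of its methylated body and another start inside that body. Each holds the 250 bases before and 50 bases after a start on the minus strand, read 5′ to 3′ from the RefSeq promoter set for GRCm38.p6, with every CpG in capitals. The first lies at chr8:87959546-87959845 and the second at chr8:87804390-87804689.
Zfp423 outer start: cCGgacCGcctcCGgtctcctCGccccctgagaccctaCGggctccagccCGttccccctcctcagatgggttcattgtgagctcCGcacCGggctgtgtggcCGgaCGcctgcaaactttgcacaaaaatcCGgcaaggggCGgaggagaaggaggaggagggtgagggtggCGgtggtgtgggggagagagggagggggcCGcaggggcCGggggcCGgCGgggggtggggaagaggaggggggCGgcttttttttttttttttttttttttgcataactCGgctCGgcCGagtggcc
Zfp423 inner start: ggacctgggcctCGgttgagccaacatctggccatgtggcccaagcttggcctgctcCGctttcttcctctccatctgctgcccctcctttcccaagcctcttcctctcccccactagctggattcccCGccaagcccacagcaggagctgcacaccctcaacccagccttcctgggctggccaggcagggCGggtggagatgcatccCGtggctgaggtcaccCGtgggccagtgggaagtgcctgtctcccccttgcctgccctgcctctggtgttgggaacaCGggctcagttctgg

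The outer promoter has 21 CpGs in 300 bases and held 0 methylated of 73 pooled calls, which allows a share of up to 4.11%, with no calls from SOA. It lies within a CpG-dense stretch of 6807 bp and 421 CpGs (chromosome 8, 87957731 to 87964537) that was methylated at 0.79% ± 0.64 (IFC), 1.18% ± 0.68 (SO), 0.96% ± 1.52 (SOA) and 1.73% ± 0.46 (IV). The inner promoter has 7 CpGs and held 54 methylated of 65 pooled calls, or 83.1%. The pooled level was 50% in IFC from 8 calls, 95.5% in SO from 22, 83.3% in SOA from 12 and 82.6% in IV from 23. In the 1000 bp before the same start it was 38.1% in IFC from 21 calls and 79.5% to 88.2% in the other groups, and these pooled levels were not tested. The window around it was at 70.4% to 73.3%. The large coding exon 4 of Zfp423, with 143 CpGs in 3215 bp, had pooled levels of 96.8%, 96.3%, 96.9% and 95.04% in IFC, SO, SOA and IV, against 85.7%, 74.7%, 34.6% and 30.5% pooled over exon 4 of Zfp521. The 2 genes were thus alike in a CpG-rich start with little methylation and low levels in the 10 kb on either side. In each group both bodies lay above those flanks, but the body of Zfp521 was at a low level in adult oocytes. Its level was below that of Zfp423 in every group, by the wider margin in adult oocytes.

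Zfp423 did not pass any of 5 comparisons in two-sided exact permutation tests. Prepubertal libraries averaged 79.2% ± 3.11 (n = 9) and adult libraries 79.0% ± 2.53 (n = 7), a difference of 0.26 points (exact p = 0.864), and the shifts that the permutation test did not reject at the 5% level ran from -2.88 to 3.26 points. IFC minus SO was -2.11 points (interval -7.57 to 2.25, exact p = 0.389). SO minus SOA was 0.71 points (interval -3.64 to 4.98, exact p = 0.714). SOA minus IV was 1.14 points (interval -7.95 to 9.96, exact p = 0.6). IFC minus SOA was -1.40 points (interval -11.0 to 6.19, exact p = 0.629). After Benjamini-Hochberg adjustment over the 5 exact tests all were at 0.864. The library numbers allow an exact permutation p no smaller than 0.00794 for IFC minus SO and SO minus SOA. For SOA minus IV and IFC minus SOA the floor was 0.0286, which alone would not pass after adjustment. Restricted to positions with at least 3 calls, IFC minus SO became -25.6 points and SO minus SOA 22.1 points (adjusted exact permutation p = 0.0198 for each). Those values rest on 3 to 966 calls per library, and in SOA on as little as 0.261% of a library's calls in the gene.

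Along the gene, Zfp423 formed a plateau of similar shape in all groups. Window means over prepubertal libraries had a median of 88.1% and those over adult libraries 89.0%. More than 80% methylation was reached by 23 of 30 windows for IFC, SO and IV and by 21 for SOA, and under 20% in 1 window, that nearest the start. The window that holds the start of the gene had 12.6%, 16.6%, 12.1% and 13.9%. Inside the plateau, the windows centred 255 kb and 215 kb from the start dipped, the first to 41.0% (IFC), 54.1% (SO), 53.7% (SOA) and 59.3% (IV), and the second to 50.8% to 57.2%. The window that straddles the 3′ end had 38.1% to 44.0%. A CpG-dense stretch of 1098 bp at that end, which holds part of the last exon, had pooled levels of 37.5% (IFC), 49.2% (SO), 65.5% (SOA) and 66.0% (IV) from 420 calls, too few in single libraries to compare. Over the 30 windows, Pearson's r was 0.96 to 0.98 between IFC and SO, SO and SOA, SOA and IV, and IFC and IV. The other pairs of groups were not compared. Outside the gene, methylation fell to 1.21% to 2.77% in the 10 kb before the start and 12.2% to 15.5% in the 10 kb after the end.

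**Figure D3:**
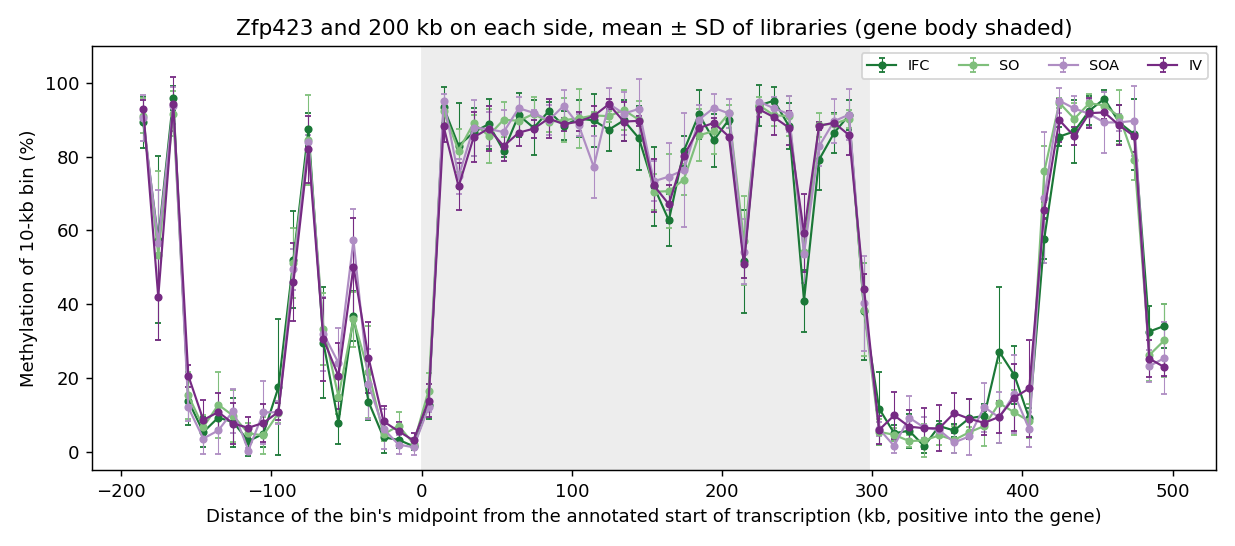
Methylation (%) of 10-kb windows of Zfp423 and 200 kb on each side, against the distance of the window's midpoint from the annotated start (kb). Lines are group means, bars ± SD over libraries, and the gene body is shaded. The 4 groups run together, with 21 to 23 of 30 windows in the gene above 80% and low levels just outside it.

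Of the 30 windows of Zfp423, 0 were called in any of the 4 comparisons by the logistic model, and 0 by the moderated quasi-binomial test or limma. Genome-wide, 0.196% to 2.22% of windows were called per comparison and direction, so a count of 0 in 30 lies near that background and is no result about the gene. An unadjusted p under 0.05 was found in 5 windows for IFC against SO, 3 for SO against SOA, 5 for SOA against IV and 6 for IFC against SOA. The genome-wide shares were 16.2%, 20.1%, 21.2% and 22.2% in that order. The means of prepubertal and adult libraries differed by -7.84 to 8.76 points in single windows, and in 0 of 30 windows did all prepubertal libraries lie on one side of all adult libraries. Outside the gene, 1 window 45.4 kb before the start was called lower in SO and in IFC than in SOA, with 36.8% (IFC), 36.0% (SO), 57.4% (SOA) and 50.2% (IV). It was not called by either other test.

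The genes next to Zfp423 had their own levels. 4933402J07Rik, a gene of unknown function, lies 72.4 kb beyond the 3′ end and had 19.9% ± 8.38 (IFC), 9.60% ± 4.82 (SO), 13.5% ± 3.09 (SOA) and 10.3% ± 3.07 (IV). Cnep1r1, which encodes a regulatory subunit of a nuclear envelope phosphatase, lies 159 kb before the start and had 87.3% ± 4.67, 78.9% ± 12.5, 86.9% ± 10.4 and 88.1% ± 0.848. The means of neither separated prepubertal from adult groups.

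Calls that lie close together in Zfp521 mostly had the same state. Among positions with a single call, pairs on one strand within 50 bp of each other, many of which will come from 1 read, were concordant in 89.5% ± 1.898 of cases (IFC), 89.5% ± 2.13 (SO), 90.9% ± 3.39 (SOA) and 87.6% ± 2.31 (IV). Pairs 1 to 2 kb apart were concordant in 70.6%, 68.6%, 71.2% and 67.4%. Pairs with both calls methylated made up 53.4% ± 6.93 in IFC and 40.3% ± 4.33 in SO, against 14.8% ± 2.68 in SOA and 15.2% ± 3.19 in IV, and pairs with both unmethylated 36.1%, 49.2%, 76.1% and 72.4%. The share of mixed pairs was thus similar while the share of methylated pairs differed. Near pairs give more weight to CpG-dense stretches, and that at the start of Zfp521 had little methylation in all groups. In SO, both-unmethylated pairs outnumbered both-methylated ones although 59.5% of calls in the gene were methylated. The contrast of near and distant pairs therefore mixes distance with position in the gene. In Zfp423, near pairs were concordant in 87.1% to 89.6% and distant pairs in 76.5% to 78.7%, by group. These pairs share reads and libraries and were not tested.

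**Figure D4:**
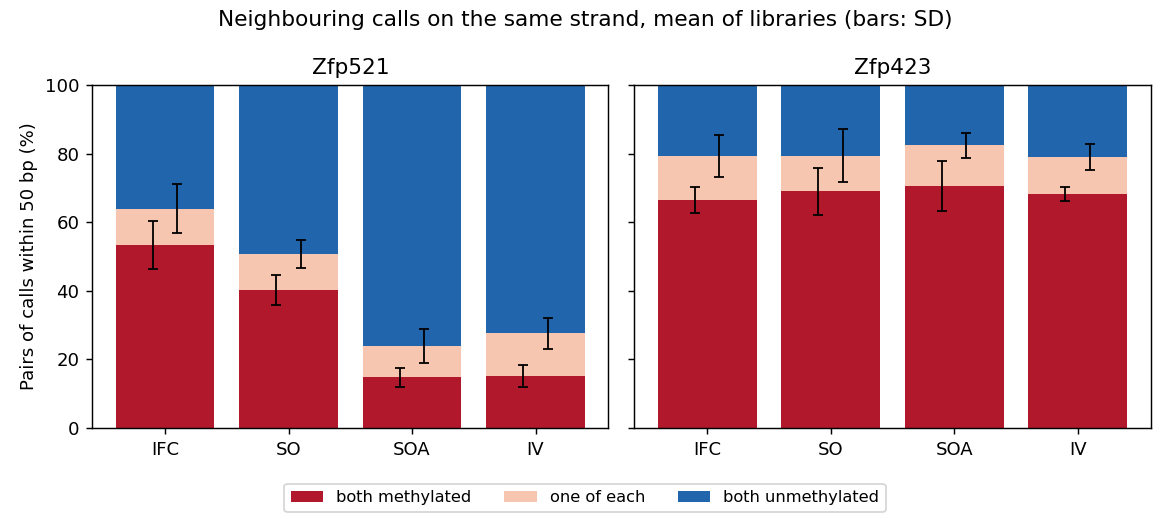
Share (%) of pairs of single calls within 50 bp on one strand that were both methylated, both unmethylated or mixed, for Zfp521 and Zfp423 by group. Bars are means over libraries and whiskers SD. Both-methylated pairs of Zfp521 make up 53.4% and 40.3% in IFC and SO against 14.8% and 15.2% in SOA and IV, and those of Zfp423 66.4% to 70.5%.

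Genes of the pathways in which the paralogues act were read from 4 lists, 36 genes in all, of which 33 had enough positions in each library (Cebpa, Fabp4 and Ibsp did not). In a quasi-binomial model over 14355 gene bodies with limma's moderated dispersion, 4 of the 33 passed between prepubertal and adult libraries, 3 higher and 1 lower in prepubertal oocytes. Genome-wide, 4.57% of gene bodies were called higher and 2.03% lower. The median difference over the 33 genes was 2.07 points, against 0.45 over all gene bodies.

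Of the EBF factors, which both paralogues bind, 1 of 4 passed. Ebf4 had 29.6% ± 5.04 (IFC), 32.7% ± 3.16 (SO), 15.5% ± 4.05 (SOA) and 19.6% ± 5.57 (IV), a difference of 14.1 points (limma-moderated quasi-binomial test, adjusted p = 2.63e-05). Its groups overlapped in 1 library each way, the lowest prepubertal at 22.2% and the highest adult at 25.7%, which was IV1. Ebf1 and Ebf3 were low in all groups, at 4.36% to 7.72% and 6.10% to 9.85%, and Ebf2 was at 38.1% to 39.7%.

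Of 9 genes of BMP-SMAD and retinoid signalling, 1 passed in each direction. Smad9, which encodes a SMAD of the BMP branch, went against Zfp521, at 15.6% ± 3.44 (IFC), 28.1% ± 4.31 (SO), 41.1% ± 4.03 (SOA) and 44.5% ± 3.47 (IV), a difference of -20.0 points (limma-moderated test, adjusted p = 1.53e-06). All 9 prepubertal libraries (11.6% to 34.7%) lay below all 7 adult libraries (35.3% to 48.5%). Rxra, which encodes a retinoid X receptor, had 79.9% ± 3.65, 77.3% ± 1.89, 75.4% ± 5.45 and 69.9% ± 4.54 (difference 5.39 points, limma-moderated adjusted p = 0.00448), with overlapping groups. Rxra was not called with limma on percentages or without SOA4. Smad1, Smad4, Smad5, Bmpr1a, Bmpr1b, Bmpr2 and Rara did not pass.

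Of 13 NuRD genes, 0 passed, with 1 at an unadjusted p under 0.05 (Chd3), 0 by limma and 7 by the logistic likelihood-ratio test. The genome-wide shares of gene bodies were 16.8%, 4.71% and 39.0%. They ranged from 32.7% to 93.2% in group means, with Chd4, the remodelling ATPase, at 88.6% to 93.2%. Of 7 measured genes of adipocyte and bone differentiation, 1 passed. Prdm16, a factor of brown fat identity, was at 54.6% ± 5.78 (IFC), 46.7% ± 2.48 (SO), 37.5% ± 4.08 (SOA) and 37.0% ± 3.25 (IV), a difference of 12.9 points (limma-moderated test, adjusted p = 3.87e-07), and the lowest prepubertal library, at 44.2%, was above the highest adult library, at 41.9%. The paper had already reported Prdm16 as hypermethylated in IFC against SO, a different contrast of the same libraries, so its call is not fresh evidence about the list. Pparg, the receptor that drives fat cell differentiation, did not pass and was at 84.9% to 88.6%. By the logistic likelihood-ratio test without a spread between libraries, 18 of the 33 genes were called, beside 39.0% of all gene bodies.

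**Figure D5:**
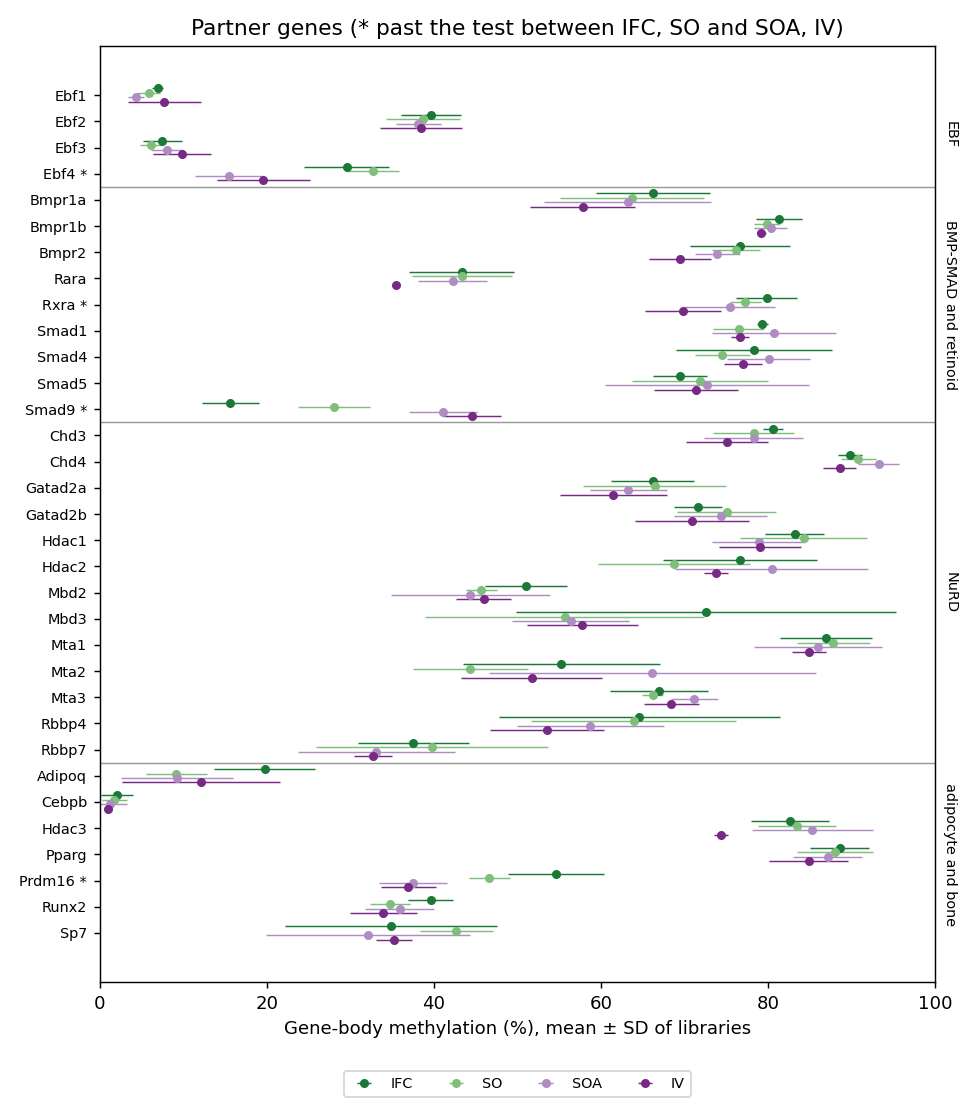
Gene-body methylation (%) of the 33 measured partner genes, mean ± SD over libraries for each group, ordered by list. Stars mark the 4 genes past the test: Ebf4, Rxra and Prdm16 lie higher and Smad9 lower in IFC and SO than in SOA and IV.

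The genes whose gene-body level over the 16 libraries was most like that of Zfp521 were, by Pearson's r among 8272 gene bodies with an SD of at least 5 points, Zbtb20 and Klf12 (r = 0.98 each), 1700025G04Rik (0.98), Tcf4, Rmdn2, Mark1 and Prkag2 (0.97 each), and Miga1, Ppp3ca and Dirc2 (0.96 each). Zbtb20, Klf12 and Tcf4 encode transcription factors, Mark1 a kinase of microtubule-associated proteins, Prkag2 a subunit of AMP-activated kinase, and Ppp3ca the catalytic subunit of calcineurin. Tcf4, like Zfp521, had already been named by the paper among the genes most hypermethylated in SO against SOA. In all 10 every prepubertal library lay above every adult library, as in 0.94% of the 14355 gene bodies (the opposite held in 0.585%), which follows from the choice of genes like Zfp521. Since the libraries form 2 separate blocks, r largely reflects the step between them: within the 9 prepubertal libraries it was 0.57 to 0.93, highest for Tcf4, and within the 7 adult libraries -0.20 to 0.61.

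Among these genes, the difference between prepubertal and adult libraries ran from 13.5 points in Ppp3ca to 30.1 points in Rmdn2, all below the 33.7 points of Zfp521. Tcf4 was the most methylated of them in IFC, SO and SOA but not in IV, at 82.9% (IFC), 77.7% (SO), 54.5% (SOA) and 45.1% (IV), and Klf12 the least, at 35.3%, 33.3%, 9.57% and 11.8%. By Spearman's rho, which ranks all prepubertal libraries above all adult ones in each such gene, 2 of the 10 were again among the 10 most like Zfp521 (1700025G04Rik and Zbtb20), and Prdm16 came first at 0.98. For Zfp423, whose SD over the 16 libraries was 2.78 points, the most like were Rnaset2b and Usb1 (r = 0.85 each), Jmy (0.83), Ptpn6 (0.82) and Rps6ka2 (0.81), none of which separated prepubertal from adult libraries. The levels of Zfp521 and Zfp423 themselves had r = 0.09 over the 16 libraries, which share depth and genome-wide level.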

How the data were processed

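The libraries were made from bisulphite-treated DNA by post-bisulphite adapter tagging, and per the labels the authors used Trim Galore 0.4.4, cutadapt 1.9.1 and Bismark 0.19.0 on GRCm38. The deposited tables list each covered cytosine of a CpG with its methylated and unmethylated counts and the percent methylated, after removal of duplicate reads. The lysis text in the labels names a single blastocyst, whereas the cell type given is oocytes. Calls are not independent molecules, and intervals and the limits given for 0 methylated calls cover counting error only.

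The value of a region was methylated calls over all calls in a library, and differences are between means of library values, in percentage points. Gene models were from GENCODE M21. A window belonged to a gene if its midpoint lay in it. Windows of 10 kb were compared by logistic regression with a likelihood-ratio test, adjusted over 192272 windows (Benjamini-Hochberg), with a limit of 20 points. The logistic model has no term for the spread between libraries, and a moderated quasi-binomial test and limma were run beside it. Gene bodies were tested by a quasi-binomial model with dispersion moderated by limma 3.58.1 (R 4.3.3), and Zfp423 by exact permutation (Python 3.11.15). Procedures were tested on simulated calls. CpG-dense stretches had 50 or more CpGs spaced 20 bp apart or less on average.

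The members and lists were chosen with earlier results of these data known. Genes were named if they were members, listed partners, nearest protein-coding neighbours, overlapping genes, or the 10 (Zfp521) and 5 (Zfp423) most alike by Pearson's r, leaving out genes that overlap one already named. Libraries were grouped by their titles.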

Additional observations from a re-analysis of the deposited data

Results flagged for a closer look

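In 63 groups of 4 or 5 libraries, over the 2 paralogues, the called partner genes and the genes most like them, 7 had an outermost library far from the rest by Dixon's criterion, which chance meets in about 1 of 20. The SO library SO3 was the lowest of its group in Zfp521 (54.0% against 59.9% to 62.0%), Zbtb20 (52.0% against 56.5% to 57.4%), Tcf4 (75.6% against 77.9% to 78.7%) and Dirc2 (34.3% against 41.2% to 43.8%). Zbtb20, Tcf4 and Dirc2 were named for their likeness to Zfp521 over these same libraries, so the 4 values in SO3 are not independent and cannot be counted against the chance rate. IFC4 was the lowest of its group in Prdm16 (46.1% against 56.8% to 58.9%) and Mark1 (48.2% against 59.9% to 62.3%). SOA2 was the highest of its group in Miga1 (44.6% against 31.7% to 33.3%). Genome-wide, 38.9% of calls were methylated in SO3 and 37.6% in IFC4, and with any single library left out the difference in Zfp521 was 33.0 to 34.7 points.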

How the results depend on the processing

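For Zfp521, the difference of 33.7 points between prepubertal and adult libraries ran from 33.0 to 34.7 with single libraries left out. It ran from 33.1 to 35.3 under the other ways of counting calls, and fell to 30.7 in deep libraries, which include none of IFC. At positions with at least 3 calls, however, IFC libraries had 66.25% to 88.9% and SO libraries 33.3% to 62.9%, ranges that did not overlap. Those values rest on 9 to 80 calls per IFC library and 12 to 634 per SO library, and the shift was not tested. For Zfp423, no comparison passed with single libraries left out. SOA minus IV could not have passed, since too few libraries remain for the exact test. With 1 of its own libraries left out, neither IFC minus SO, SO minus SOA nor IFC minus SOA could have passed alone after adjustment. These results therefore cannot decide those comparisons. The differences ran from -0.31 to 1.14 points (prepubertal minus adult), -3.34 to -0.16 (IFC minus SO), -0.59 to 1.97 (SO minus SOA), -0.12 to 2.44 (SOA minus IV) and -2.70 to 0.54 (IFC minus SOA). Signs also turned at -0.047 points for SO minus SOA with the mean of position percentages, -0.64 for prepubertal minus adult in shallow libraries and -0.30 for SOA minus IV in deep libraries. With at least 3 calls per position, IFC minus SO was -25.6, SO minus SOA 22.1 and SOA minus IV -15.2 points; the cause was not tested. No IV library was shallow and no IFC library deep, so those comparisons have no value there.

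Of Zfp521 windows, 24 were called between SO and SOA (20 to 24 with single libraries left out) and 21 by the moderated quasi-binomial test. Only 12 were called by limma, 13 at 30 points and 8 with 20 positions per window, where 9 could be tested. Between IFC and SOA 26 were called (23 to 27) and 25 by the quasi-binomial test, but 16 by limma and 8 with 20 positions. Between IFC and SO, 0 became 6 without a limit and 0 to 1 with libraries left out, and between SOA and IV 0 became 1 without a limit. For Zfp423, 0 became 1 (SO and SOA), 1 (IFC and SO) and 2 (SOA and IV) without a limit. Apart from the shares printed above, no genome-wide share was worked out for these settings, so nothing is read from the window counts. Of partner genes, 4 were called, 3 to 5 with libraries left out, and 18 by the likelihood-ratio test. All gene bodies called fell from 947 to 676 by limma and to 610 without SOA4, and rose to 5595 by the likelihood-ratio test.

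Replicate numbers did not pair the libraries, since the deviations of same-numbered libraries had r between -0.039 and 0.058 over 21 pairs. With the number as a block, Zfp521 differed by 33.9 points, Zfp423 by 0.60, -2.78 (IFC minus SO), 1.38 (SO minus SOA), 1.62 (SOA minus IV) and -1.40 (IFC minus SOA). The adjusted sign-flip p of Zfp423 was 0.625 for each. With so few shared numbers no difference of any size could pass the sign-flip test, so nothing is read from it. The block called 5 of 33 partner genes, beside 1082 of 14355 gene bodies. It called 24 (SO and SOA) and 26 (IFC and SOA) windows of Zfp521 and 0 of Zfp423, with no genome-wide share worked out. The counts of 24 and 26 restate the contrast that selected the gene, and nothing is read from these window counts.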
